A study of Homo sapiens with 4 samples.

Results

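DDIT4, the 3 sestrins and their partners in the control of mTORC1 were followed through 4 libraries of human multiple myeloma cells. The 10 genes are DDIT4, SESN1, SESN2, SESN3, TSC1, TSC2, DEPTOR, AKT1S1, MTOR and RPTOR. They were taken by gene symbol from the 60612 genes in each of the 2 deposited tables, and each symbol matched 1 Ensembl gene ID in both tables. They were chosen by their FPKM values and their ratios after over before sorting in these same libraries, so those values are a description and carry no test. Cells of 2 established human myeloma lines, H929 and KMS28BM, were profiled by RNA-seq, with 1 library per line labelled as taken before and 1 as taken after a sort, which the title places on a microfluidic chip. The labels give no other treatment, genotype or time, and nothing says whether the libraries of a line came from separate cultures. The wording of the series title seems to call the sorted libraries of the labels unsorted; group names here are those of the labels, and each direction given below is reversed if the title holds instead. Each group is 1 library, so nothing said within a line could be checked against a replicate. In bulk RNA, fewer cells that express a gene and less of its RNA per cell cannot be told apart.

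As background, mTORC1 is a kinase complex on the lysosome that promotes protein synthesis and growth when amino acids, energy and growth factors are present. MTOR is its kinase and RPTOR the subunit that presents substrates. DDIT4, also called REDD1, restrains mTORC1 through the TSC1 and TSC2 complex, which keeps the activating GTPase RHEB off. The sestrins bind GATOR2 and so block the amino acid branch, and SESN2 is a leucine sensor. DEPTOR and AKT1S1, also called PRAS40, are inhibitory subunits bound to the complex itself. Plasma cells carry a heavy load of protein synthesis, and DEPTOR is known to be abundant in a subset of myelomas.

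Levels are in FPKM, which divides fragments by transcript length and by library size, so they may be compared between genes. Depth was estimated from the values at between 21.3 and 25.0 M (mega) fragments per library. All 8 plasma cell markers examined were at 1 FPKM or more in every library, with a summed level of 948 FPKM before and 526 after sorting in H929 and of 587 and 597 in KMS28BM. Of 18 markers of other cells, 0 reached 1 FPKM in H929 and only KRT18 did in KMS28BM, at 2.22 and 1.23 FPKM; the 18 summed to 0.923 and 0.792 FPKM in H929 and to 2.83 and 1.77 in KMS28BM, with between 8 and 10 of them at the floor of the tables. Log2 ratios are of FPKM plus 1, after over before sorting, which understates the change of low genes. Over the 11083 genes at 1 FPKM or more in either H929 library the median log2 ratio was -0.11, and over 10472 in KMS28BM it was 0.12. Ratios followed the GC content of the transcripts in opposite directions, with Spearman's rho across protein-coding genes of 0.54 in H929 and -0.75 in KMS28BM; genes are not independent replicates. A joint trend in both GC content and transcript length held 30.5% of the variance of the H929 ratios and 51.0% in KMS28BM. Ratios below are therefore also given with that trend removed. The trend was taken off at full size. For low genes, whose ratios the added 1 FPKM shrinks, this can remove too much. What part the GC trend or the lower plasma cell marker sum in sorted H929 has in the ratios was not tested.

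In H929 the stress-induced brakes moved apart, with DDIT4 higher and all 3 sestrins lower in the library labelled after sorting. DEPTOR and TSC1, both low in level, were also lower there, with FPKM ratios of 0.371 and 0.385, like those of SESN1 and SESN2. Their log2 ratios of FPKM plus 1 fell short of 2-fold. TSC2, AKT1S1, MTOR and RPTOR differed little. In KMS28BM no gene of the 10 differed by 2-fold on this scale. All 10 genes were at 1 FPKM or more in either H929 library, and 1 was 2-fold or more higher and 3 were 2-fold or more lower; of all genes measured there, 1.59% were that much higher and 5.17% that much lower, or 6.76% in either direction. The ratios that gave these counts also chose the genes, so nothing is read from the excess. In KMS28BM 8 of the 10 were measured, with 0 higher and 0 lower, where 4.13% and 1.12% of all genes were, or 5.25% in either direction; with the trend removed the 10 genes again gave 0 and 0, against 1.16% and 1.25%. The median over the measured genes was -0.30 in H929 and -0.08 in KMS28BM. SESN1 at -1.06 lay just past the 2-fold line in H929 and DEPTOR at -0.77 fell short of it. Their FPKM ratios were alike, at 0.374 and 0.371, so the added 1 FPKM sets them apart.

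**Figure D1:**
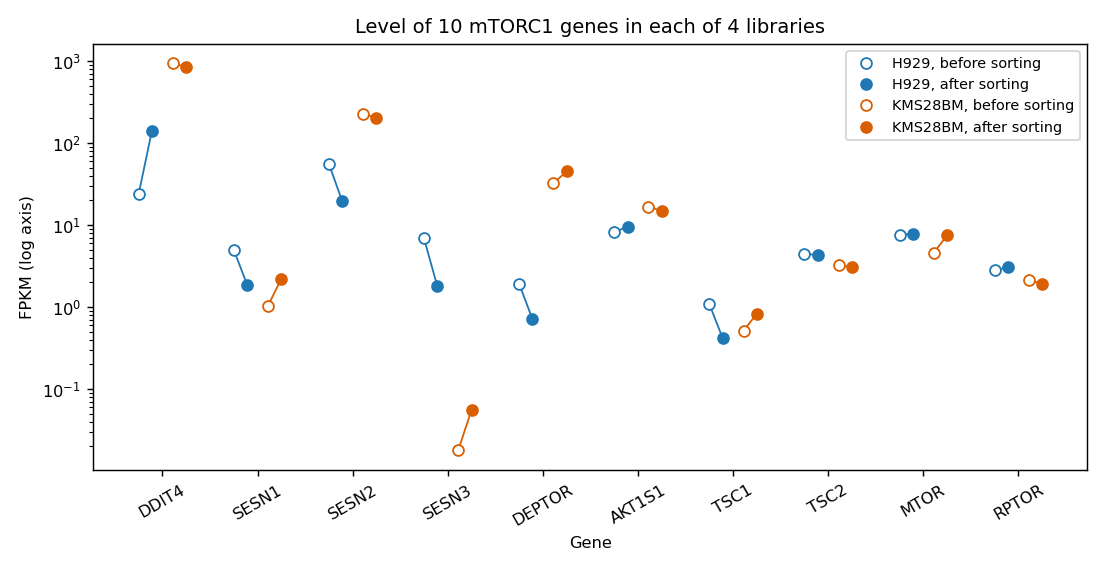
Level of each of the 10 genes in FPKM on a log axis, with open points for the library before sorting and filled points for the library after, in H929 (blue) and KMS28BM (orange); each point is 1 library and has no error bar. DDIT4 stands at 23.8 and 142 FPKM in H929 and at 940 and 847 FPKM in KMS28BM, and SESN3 is near 0 in KMS28BM alone.

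DDIT4 (ENSG00000168209), which stress signals such as hypoxia and amino acid shortage are known to induce, was listed at 23.8 FPKM before and 142 FPKM after sorting in H929. In KMS28BM it was listed at 940 FPKM before and 847 after. Both KMS28BM libraries were thus above both H929 libraries, and the sorted H929 library lay between. The H929 ratio was 5.95, with a 95% counting interval of 5.57 to 6.37 from an estimated 1041 and 5687 fragments. That interval, like the others below, covers counting error between 2 libraries and no biological spread. On the log2 scale the ratio was 2.52, and 2.27 with the trend removed. In KMS28BM the ratio was 0.901, with an interval of 0.888 to 0.914, and the log2 ratio of -0.15 became 0.09 with the trend removed. DDIT4 ranked 1549th of all genes by FPKM in H929 before sorting and 310th after, against 53rd and 49th in KMS28BM. An antisense gene, DDIT4-AS1, overlaps 41.2% of the exon bases of DDIT4 in GENCODE; it was listed at 0.180 FPKM in H929 before sorting and at the floor in the other libraries. No source used here says whether counting used strand, so reads of the pair cannot be told apart.

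Because DDIT4 and SESN2 parted in H929 but shared a level pattern between the lines, the 250 bases before the RefSeq start of each are shown (GRCh38.p14). Matches to the core of the hypoxia element (ACGTG) and to the CCAAT box, on either strand, are in capitals. SESN2 lies on the plus strand at chr1:28259268-28259517 and DDIT4 on the plus strand at chr10:72273674-72273923.
SESN2: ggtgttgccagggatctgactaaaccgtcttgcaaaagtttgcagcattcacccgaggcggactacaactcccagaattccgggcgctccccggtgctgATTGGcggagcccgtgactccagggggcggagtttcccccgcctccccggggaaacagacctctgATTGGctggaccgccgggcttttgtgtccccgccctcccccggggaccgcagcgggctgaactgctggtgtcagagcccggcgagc
DDIT4: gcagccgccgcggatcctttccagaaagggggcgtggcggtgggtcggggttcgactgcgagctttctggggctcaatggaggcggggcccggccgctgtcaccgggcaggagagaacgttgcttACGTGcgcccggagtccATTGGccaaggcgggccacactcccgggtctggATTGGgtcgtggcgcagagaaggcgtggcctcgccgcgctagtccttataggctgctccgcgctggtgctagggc

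The DDIT4 sequence held ACGTG once, starting at -125 from the start, and SESN2 held it 0 times; 18.5% of the 35116 RefSeq windows of this length hold it. Both held the CCAAT box on the minus strand, at -151 and -86 in SESN2 and at -108 and -75 in DDIT4. MTOR held 3 matches, and SESN1 held 1 at each of a pair of its starts. At least 2 such matches occur in 9.53% of windows, and this motif was added after the sequences had been read. Of 8 genes with a RefSeq window, TSC2 alone held the ATF4 element TGATGNAA, at -110 from 1 of its starts, and an E-box CACGTG at -114, which contains the ACGTG core on both strands; those motifs occur in 3.14% and 6.34% of windows. MTOR alone held the heat shock element GAANNTTC, at -97, found in 5.78% of windows. The FOXO element GTAAACA, found in 2.98%, was in none of them. These are letter matches in a short window, not binding sites.

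All 3 sestrins were lower after sorting in H929. SESN2 (ENSG00000130766), the leucine sensor and an ATF4 target, was listed at 56.0 FPKM before and 19.6 after in H929 and at 226 and 203 in KMS28BM. SESN1 (ENSG00000080546), a stress-induced sestrin, was at 5.02 and 1.88 FPKM in H929 and at 1.04 and 2.203 in KMS28BM. SESN3 (ENSG00000149212), which FOXO factors induce, was at 6.89 and 1.80 FPKM in H929 and at 0.0179 and 0.0555 in KMS28BM. SESN2 was higher in both KMS28BM libraries than in either H929 library, SESN3 was lower in both, and SESN1 overlapped between the lines.

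The H929 ratios were 0.350 for SESN2 (counting interval 0.331 to 0.371), 0.374 for SESN1 (0.308 to 0.450) and 0.261 for SESN3 (0.233 to 0.292). The transcripts differ in make-up, at 59.5% GC and 3453 bases for SESN2, 43.4% and 3509 bases for SESN1 and 37.1% and 9558 bases for SESN3. A gene with the GC content and length of SESN3 had a trend value of -0.76 in H929, while that of SESN2 had 0.12. The log2 ratios of -1.47, -1.06 and -1.49 for SESN2, SESN1 and SESN3 became -1.59, -0.73 and -0.74 with the trend removed. On this scale SESN2 was then the only 1 of the 10 genes 2-fold or more lower, as were 2.29% of all genes. DDIT4 was the only 1 higher, as were 2.37%. That SESN2 stood alone may depend on the added 1 FPKM, which shrinks ratios of low genes but not the trend taken off them. Without it the log2 ratios were -1.42 for SESN1 and -1.94 for SESN3, against trend values of -0.34 and -0.76.

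In KMS28BM the SESN2 ratio was 0.897 (0.878 to 0.917), a log2 ratio of -0.16 that came to about 0 with the trend removed. SESN1 had a ratio of 2.12 (1.62 to 2.82) from an estimated 77 and 182 fragments; its log2 ratio of 0.65 became 0.16. SESN3 rested on an estimated 4 and 13 fragments, and its ratio of 3.11 had an interval of 0.905 to 12.3, so a difference was not detectable at this depth. In this line the sestrin pool was nearly all SESN2, which made up 99.5% of the summed sestrin FPKM before and 98.9% after sorting. In H929 it made up 82.5% and 84.2%. The sum over the 3 genes was 67.9 FPKM before and 23.3 after in H929, and 227 and 205 in KMS28BM.

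A ratio of 2 genes within a library does not depend on how libraries are scaled. DDIT4 over SESN2 was 0.425 before and 7.22 after sorting in H929, and 4.16 and 4.17 in KMS28BM. DDIT4 alone made up 20.2% of the summed FPKM of the 10 genes in H929 before sorting, 74.2% after, and 76.6% and 75.3% in KMS28BM. The H929 library before sorting was thus the only one of the 4 in which SESN2 was listed above DDIT4. These within-library ratios were computed after the values had been seen.

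**Figure D2:**
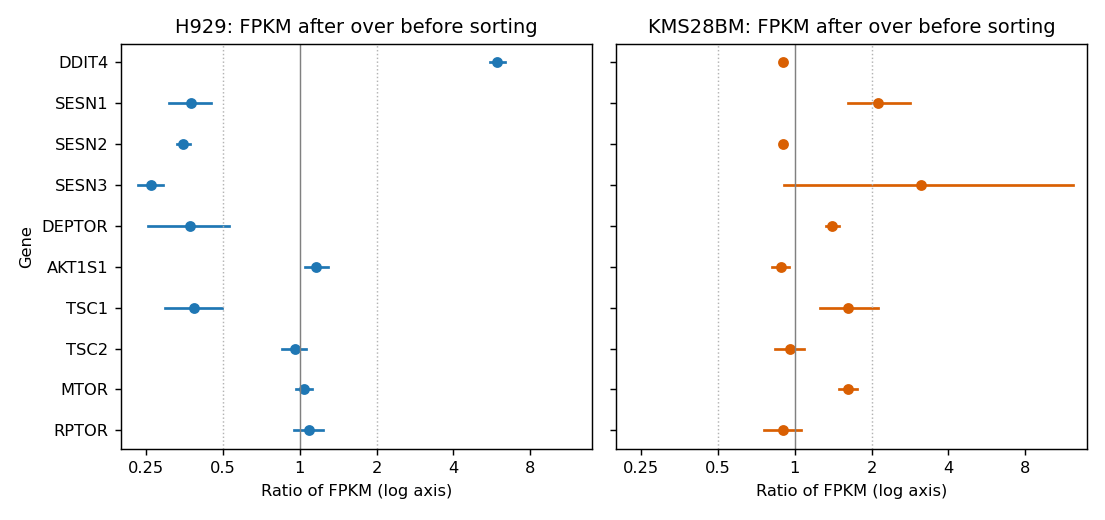
Ratio of FPKM after over before sorting for each of the 10 genes on a log axis, in H929 (left) and KMS28BM (right); bars are 95% counting intervals from estimated fragment numbers, and dotted lines mark 2-fold. In H929 DDIT4 lies at 5.95 and SESN1, SESN2, SESN3, DEPTOR and TSC1 between 0.261 and 0.385, while in KMS28BM the bar of SESN3 runs from 0.905 to 12.3.

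The TSC complex, through which DDIT4 is known to act, showed an uneven pair. TSC1 (ENSG00000165699), the scaffold subunit, was at 1.08 and 0.417 FPKM in H929 and at 0.514 and 0.833 in KMS28BM. TSC2 (ENSG00000103197), the subunit that acts on RHEB, was at 4.49 and 4.29 FPKM in H929 and at 3.21 and 3.08 in KMS28BM. TSC2 thus stood nearly level across sorting in both lines, with ratios of 0.955 (0.856 to 1.06) and 0.957 (0.838 to 1.09), and somewhat higher in H929. TSC1 had ratios of 0.385 (0.298 to 0.498) and 1.62 (1.26 to 2.11). Its log2 ratios of -0.56 and 0.28 became -0.27 and -0.07 with the trend removed. Within a library TSC2 was listed at 4.15 times TSC1 before and 10.3 times after sorting in H929, and at 6.25 and 3.69 times in KMS28BM. The trend values of TSC2 and TSC1 were 0.01 and -0.29 in H929 and -0.11 and 0.34 in KMS28BM. This within-library ratio is thus not free of the trend in GC content and length. The exons of TSC2 overlap those of PKD1 and NTHL1 on the other strand, over 3.96% and 2.05% of its exon bases. NTHL1 itself was at 7.77 and 12.02 FPKM in H929 and at 20.2 and 13.2 in KMS28BM, so some of the low TSC2 signal is uncertain.

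The inhibitory subunits differed mainly between the lines. DEPTOR (ENSG00000155792) was at 1.92 and 0.713 FPKM in H929 and at 32.2 and 45.2 in KMS28BM. The lowest KMS28BM value was far above the highest H929 value, with KMS28BM at 16.8 times H929 before and 63.4 times after sorting. The H929 ratio of 0.371 (0.254 to 0.528) came from an estimated 124 and 42 fragments, and its log2 ratio of -0.77 became -0.59 with the trend removed. In KMS28BM the ratio was 1.40 (1.32 to 1.49), and the log2 ratio of 0.48 became 0.13. Set against its target within a library, DEPTOR was at 0.255 and 0.0908 times MTOR in H929 and at 6.98 and 6.05 times in KMS28BM. AKT1S1 (ENSG00000204673), which AKT relieves by phosphorylation, was at 8.21 and 9.54 FPKM in H929 and at 16.8 and 14.8 in KMS28BM. Its ratios of 1.16 (1.05 to 1.29) and 0.881 (0.815 to 0.953) came to log2 values of 0.08 and -0.01 with the trend removed. TBC1D17, at 15.5 to 19.5 FPKM, overlaps 6.83% of its exon bases on the other strand.

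The core subunits were nearly level in H929. MTOR (ENSG00000198793), the kinase, was at 7.55 and 7.86 FPKM in H929, a ratio of 1.04 (0.970 to 1.12). In KMS28BM it was at 4.62 and 7.48 FPKM, a ratio of 1.62 (1.49 to 1.76) whose log2 value of 0.59 became 0.41 with the trend removed. The sorted KMS28BM library was thus close to both H929 libraries and the unsorted one below them. RPTOR (ENSG00000141564), the substrate-binding subunit, was at 2.81 and 3.05 FPKM in H929 and at 2.13 and 1.91 in KMS28BM. Its ratios were 1.09 (0.95 to 1.24) and 0.896 (0.758 to 1.06), and both intervals include 1.

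**Figure D3:**
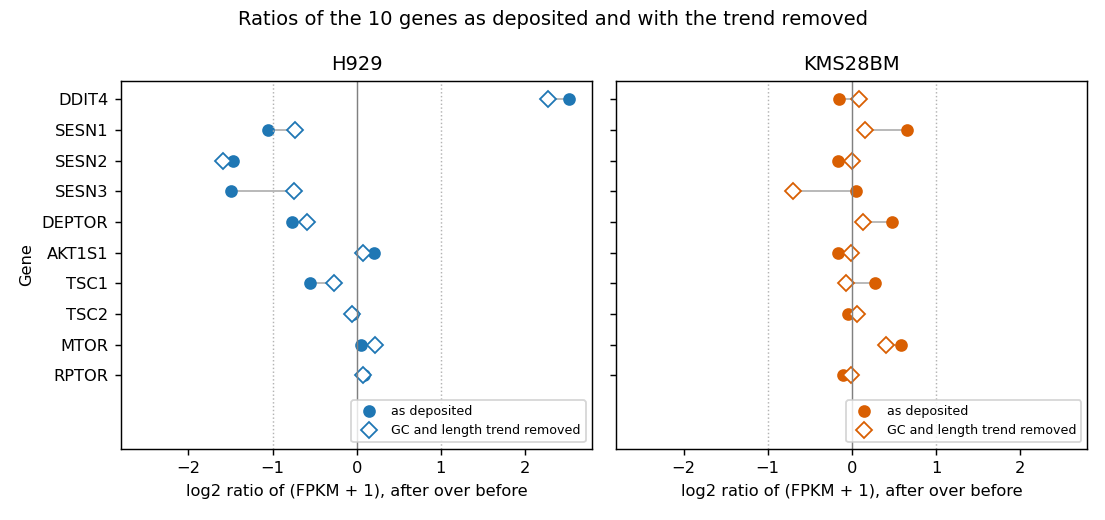
Log2 ratio of FPKM plus 1, after over before sorting, for each of the 10 genes as deposited (filled circles) and with the trend in GC content and length removed (open diamonds), in H929 and KMS28BM; dotted lines mark 2-fold and there are no error bars. DDIT4 at 2.27 and SESN2 at -1.59 stay past 2-fold in H929, while SESN1 and SESN3 come to -0.73 and -0.74.

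The 10 genes were set against other genes of like GC content. Among H929 coding genes the tenth with a median GC content of 37.7% had a median log2 ratio of -0.64, and the tenth at 60.5% had 0.17. SESN3 at -1.49 lay below the 10th percentile of the former, -1.09, SESN1 at -1.06 below that of the tenth at 43.1% GC, -0.92, and SESN2 at -1.47 below that of the tenth at 60.5%, -0.35. DDIT4 at 2.52 lay above the 90th percentile of the tenth at 57.7% GC, 0.67. The same ratios chose the genes, so nothing is read from their place beyond these percentiles. In KMS28BM the tenth at 37.8% had a median of 0.68 and that at 60.6% one of -0.22. The signs differed between the lines for 7 of the 10 genes. Of the 8 genes measured in both lines they differed for 5, or 62.5%, against 69.1% of the 9261 genes measured in both, a share near the background.

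**Figure D4:**
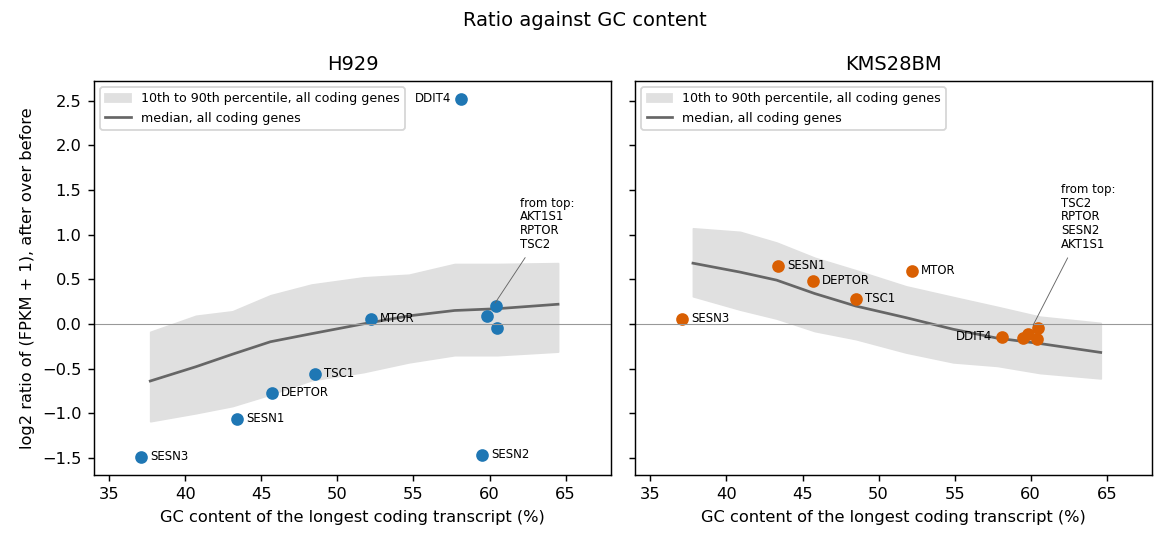
Log2 ratio of FPKM plus 1 after over before sorting against GC content of the longest coding transcript, for the 10 genes (points) over the median (line) and the 10th to 90th percentiles (grey) of protein-coding genes by GC content. DDIT4 lies above the grey band in H929 and all 3 sestrins below it. In KMS28BM MTOR lies above the band and SESN3, at under 1 FPKM, below it. The added 1 FPKM hides most of the change of a gene that low. The genes were chosen by these ratios, so their place outside the band is a description only.

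Between the lines, 8 of the 10 genes had levels that did not overlap, against 65.8% of 12294 genes that reached 1 FPKM anywhere. DDIT4, SESN2, DEPTOR and AKT1S1 were higher in both KMS28BM libraries. SESN3, TSC2, MTOR and RPTOR were higher in both H929 libraries. For MTOR the margin was slight, at 7.55 FPKM in H929 before sorting against 7.48 in KMS28BM after. The largest gaps before sorting were those of SESN3, 386-fold higher in H929 but resting on an estimated 4 fragments in KMS28BM, DDIT4, 39.5-fold higher in KMS28BM, and DEPTOR. The 2 tables may have been normalized separately, so no test was made between lines.

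In the authors' deposited table for H929, DDIT4, SESN3 and SESN2 were marked significant, as were 954 of all 60612 listed genes, or 1.57%. Of those listed genes 36942 were at the floor before and 39041 after sorting. The share is thus unlike those over measured genes above, and was not computed over measured genes alone. In the authors' deposited table the mark follows an unadjusted p, whose largest value among marked genes was 0.0498. The adjusted values in the authors' deposited table were 0.029 for DDIT4, 0.364 for SESN3 and 0.598 for SESN2. In the authors' deposited table for KMS28BM 0 of the 10 genes were marked, against 0.967% of all listed genes, which has the same limit. Which test gave these values is not stated in the sources used here.

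Few other genes of the pathway were 2-fold apart, a share in H929 near that of all genes. Over 10 lists holding 81 further genes of the pathway, 68 were measured in H929, with a median log2 ratio of -0.01, 1 gene 2-fold or more higher and 4 lower. These 5 genes were 7.35% of those measured, against 6.76% of all genes, and the log2 ratios ran from -1.20 to 1.20. In KMS28BM 64 were measured, with a median of -0.02, 0 higher and 1 lower, or 1.56% against 5.25% of all genes. The lower H929 genes included BMT2, the sensor of S-adenosylmethionine also called SAMTOR, PIK3R1, a regulatory subunit of PI3K, and PRKAA1, a catalytic subunit of AMPK. PRKAA1 was at 4.07 and 1.21 FPKM, and its log2 ratio of -1.20 became -0.44 with the trend removed; in KMS28BM it was at 1.01 and 2.31 FPKM. With the trend removed, 0 genes of these 10 lists were 2-fold apart in H929 and 1 was in KMS28BM, namely PDPK1, the kinase that activates AKT, at 2.84 and 0.718 FPKM; it shares 49.2% of its 50-base words with other genes, most with PDPK2P, and is uncertain. The 1 gene higher in H929 was CASTOR1, an arginine sensor, at 0.941 and 3.46 FPKM, which shares 40.5% of its words with another gene model.

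The lists of partners differed in direction. MLST8, the subunit shared by both mTOR complexes, was at 7.78 and 11.96 FPKM in H929 and at 21.7 and 15.6 in KMS28BM, log2 ratios of 0.56 and -0.45 that became 0.31 and -0.09 with the trend removed. RHEB, the GTPase that TSC2 switches off, was at 25.55 and 21.3 FPKM in H929 and at 17.1 and 18.3 in KMS28BM. Of GATOR1 and KICSTOR genes, the complexes that inactivate the Rag GTPases, 5 were measured in each line, with medians of 0.06 and -0.36, or 0.02 and -0.06 with the trend removed. GATOR2, which the sestrins bind, had 5 measured genes and a median of 0.12 in KMS28BM, which turned to -0.30 with the trend removed. In H929 the GATOR2 median was about 0, or 0.16 with the trend removed, with SEC13 at 21.2 and 27.7 FPKM in H929 and at 17.8 and 15.0 in KMS28BM. The 9 Rag and Ragulator genes, which seat mTORC1 on the lysosome, had medians of 0.29 and 0.06, or 0.02 and -0.03 with the trend removed, led by LAMTOR2 at 29.1 and 46.2 FPKM in H929. The amino acid sensors had medians of -0.44 and 0.45, which became -0.22 and -0.03 with the trend removed. The folliculin genes, which act on RRAGC and RRAGD, had the lowest list median in H929, -0.92 over 3 genes that were all below 0, or -0.44 with the trend removed.

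On the input and output side, the PI3K and AKT inputs had medians of -0.42 and -0.20, or -0.07 and -0.15 with the trend removed, and the AMPK inputs -0.14 and 0.02. Of 16 mTORC1 outputs 14 were measured in each line, with 0 genes 2-fold apart and medians of -0.13 and 0.03. EIF4EBP1, the translation repressor that mTORC1 phosphorylates, was at 184 and 206 FPKM in H929 and at 737 and 556 in KMS28BM. Transcript levels say nothing of phosphorylation, which was not measured.

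Of 11 ATF4-linked genes measured in H929, TRIB3 and CHAC1 were 2-fold or more lower and 0 were higher, against 5.17% and 1.59% of all genes. With the trend removed 3 were lower, CEBPB at -1.05 among them, and 0 higher, against 2.29% and 2.37%. The log2 ratio was above 0 for 1 of the 11, against 41.7% of all genes, and PPP1R15A at -0.02 and EIF2AK1 at -0.11 were close to 0. The median was -0.80, or -0.70 with the trend removed. TRIB3, a pseudokinase that restrains AKT, was at 33.2 and 13.1 FPKM, and ATF4 itself at 41.0 and 28.9. In KMS28BM the median was -0.01, with ATF4 at 103 and 95.6 FPKM. EIF2AK3, the kinase PERK, was 2-fold or more higher there, at 8.28 and 20.9 FPKM. Its log2 ratio of 1.24 became 0.75 with the trend removed.

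**Figure D5:**
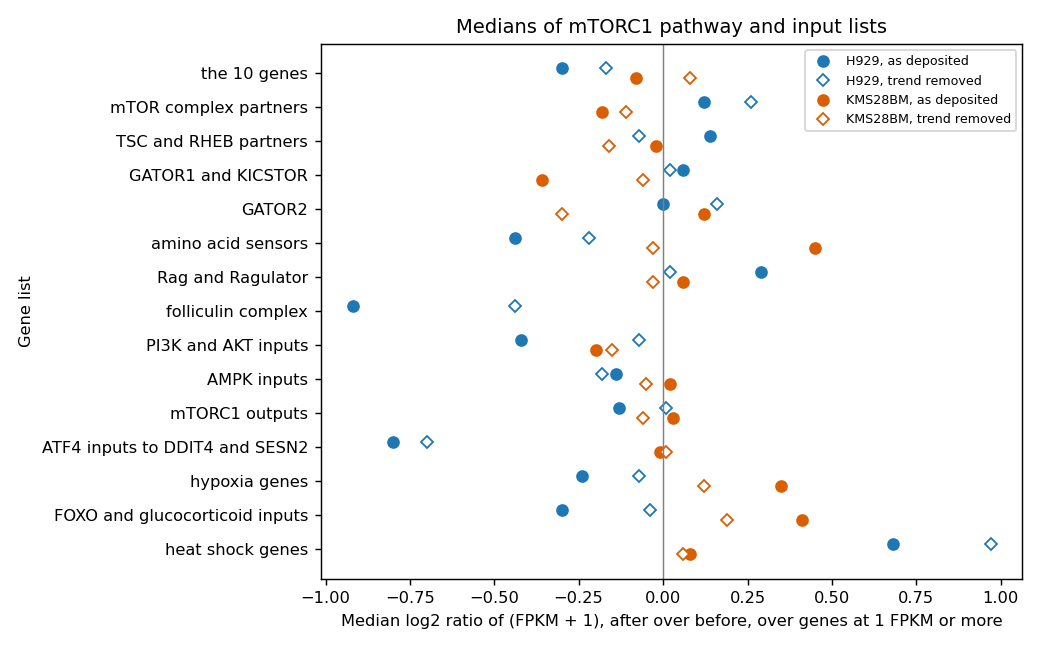
Median log2 ratio of FPKM plus 1, after over before sorting, over the measured genes of each list as deposited (circles) and with the trend in GC content and length removed (diamonds), in H929 (blue) and KMS28BM (orange); lists with under 3 measured genes have no point. In H929 the folliculin list lies at -0.92, the ATF4 list at -0.80 and the heat shock list at 0.68, and with the trend removed they lie at -0.44, -0.70 and 0.97.

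Genes with the most similar pattern were sought among 6013 protein-coding genes that reached 5 FPKM anywhere, by the distance between log2 profiles over the 4 libraries after each gene's own mean was subtracted. The 5 closest to SESN2 were IRF7, BCL2, CNTNAP1, IFI35 and CHAC1, at distances of 0.410 to 0.485. CHAC1, an ATF4 target that degrades glutathione, was at 8.58 and 3.35 FPKM in H929 and at 60.1 and 39.6 in KMS28BM. The 5 closest to DDIT4 were NR1D1, TUBB2B, CTSL, RAB3A and IL4I1, at distances of 1.27 to 1.52, all farther than the 5 closest to SESN2. Their H929 log2 ratios were 0.41 to 1.19, well short of 2.52 for DDIT4, so they share mainly its gap between the lines. TUBB2B and CTSL were under 1 FPKM in both H929 libraries. NR1D1, a clock repressor, was at 4.05 and 7.75 FPKM in H929 and at 81.1 and 76.1 in KMS28BM.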

How the data were processed

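Poly(A) RNA was sequenced as paired ends, per the labels' protocols. The authors deposited FPKM in 1 table per line, per the file headers, with a floor of 0.0001. Bowtie 0.12.2, HISAT2 2.0 and StringTie 1.3.0 are named in the submitters' processing notes, without roles; the build named there is a mouse one, although the gene IDs are human. The authors also deposited a fold ratio, its log2, a p-value and a q-value per gene, per the file headers. Log2 ratios of FPKM plus 1 were computed where either library of a line reached 1 FPKM, with no test. GC content and length are those of the longest coding transcript in GENCODE release 29, and the trend was cubic in both. Depth was read from genes with 1 transcript, 366 to 411 per library, whose FPKM multiplied by length gathered within 1% at the worth of 1 fragment. Fragments per gene are estimates, and intervals are exact conditional binomial ones; they cover counting error only, and the labels name no molecular identifiers. Sequences are from RefSeq, and 8 of the 10 genes matched. Scripts were tested on simulated data. The genes, lists and alternatives were chosen with earlier results of these data known. Named genes are the 10, up to 2 per list and line by absolute ratio at 5 FPKM or more, and the 5 nearest profiles; list genes named for passing 2-fold or as examples were chosen after their values were seen. Results of some listed genes are not reported here. Alternatives were other pseudocounts, filters, scalings, a 1.5-fold threshold and the trend removal. Figures were drawn with matplotlib 3.10.9 and values computed with SciPy 1.17.1, pandas 2.3.3 and numpy 2.4.6 under Python 3.11.15.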

Additional observations from a re-analysis of the deposited data

Results flagged for a closer look

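The direction of 7 genes differed between H929 and KMS28BM with 1 library per group; these differences were not tested, and SESN3 and TSC1 were under 1 FPKM in KMS28BM. Among genes measured in both lines, 5 of the 8 had opposite signs, as did 69.1% of all. The log2 ratio in H929 minus that in KMS28BM was 2.67 for DDIT4. It was -1.71 for SESN1, -1.54 for SESN3, where KMS28BM rests on an estimated 4 and 13 fragments, and -1.25 for DEPTOR. For TSC1 it was -0.84, for AKT1S1 0.37 and for RPTOR 0.20. With the trend in GC content and length removed DDIT4 was above 0 in both lines, at 2.27 and 0.09. TSC1 was then below 0 in both, at -0.27 and -0.07, on the scale of FPKM plus 1. Its KMS28BM log2 ratio without the added 1 FPKM was 0.70, above its trend value of 0.34. No group has enough libraries to look for one that stands apart.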

How the results depend on the processing

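The H929 ratios of DDIT4 ranged from 2.27 to 2.78 and those of SESN2 from -1.59 to -1.22 over 9 alternatives, past 2-fold in each. SESN1 ranged from -1.42 to -0.54 and SESN3 from -1.94 to -0.74. Signs changed for TSC2 in H929 (0.16 with trimmed-mean scaling) and in KMS28BM (0.01 without mitochondrial and immunoglobulin genes, 0.06 with the trend removed). They also changed for MTOR in H929 (-0.04 without those genes), and in KMS28BM with the trend removed for DDIT4 (0.09), SESN3 (-0.70) and TSC1 (-0.07). SESN3 and TSC1 were under 1 FPKM there, where the added 1 FPKM shrinks the ratio but not the trend. Their log2 ratios without it were 1.63 and 0.70, against trend values of 0.75 and 0.34. The number of the 10 genes 2-fold lower in H929 was 5 with a pseudocount of 0.1 or with none (the latter chosen once the data had been seen), and 1 with a pseudocount of 5 or the trend removed. In KMS28BM 1 was higher with a pseudocount of 0.1 or with none and 2 at 1.5-fold. The H929 median was -0.63 with a pseudocount of 0.1, -0.72 with none, -0.10 with 5 and -0.51 at 5 FPKM or more; the KMS28BM median was -0.24 with trimmed-mean scaling and 0.08 with the trend removed. Of all H929 genes, 327 were 2-fold higher and 1515 lower with a pseudocount of 0.1, 347 and 1641 with none, 60 and 79 with 5, and 820 and 2079 passed 1.5-fold; 309 were lower at 5 FPKM or more and 253 with the trend removed. In KMS28BM these were 1283 and 214, 1429 and 229, 58 and 36, and 1928 and 451, with 268 and 66 at 5 FPKM or more and 121 higher with the trend removed. Trimmed-mean scaling, which took the median of all genes from -0.11 to 0.10 in H929 and from 0.12 to -0.06 in KMS28BM, gave 365 higher and 296 lower in H929 and 227 higher and 175 lower in KMS28BM. The cause of these shifts was not tested. No paired analysis was possible because each group holds 1 library without a replicate number. Depth limits TSC1, SESN1, DEPTOR in H929 and SESN3 in KMS28BM most.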

Other observations

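In H929 the hypoxia list and the FOXO and glucocorticoid list held genes past 2-fold both ways, but with the trend removed only upward. Both lists hold genes that respond to other known inducers of DDIT4. The 10 measured hypoxia genes had a median log2 ratio of -0.24, or -0.07 with the trend removed. HILPDA, BHLHE40 and ADM were past 2-fold upward and EGLN1 and PDK1 downward, where 1.59% and 5.17% of all genes were. With the trend removed 2 were past 2-fold upward and 0 downward, against 2.37% and 2.29%. In KMS28BM the median was 0.35, or 0.12 with the trend removed. HIF1A was 2-fold or more higher there and HILPDA lower, against 4.13% and 1.12% of all genes. With the trend removed 0 were higher and 1 was lower. HILPDA, a lipid droplet protein, was at 3.53 and 33.6 FPKM in H929 and at 32.7 and 15.4 in KMS28BM, the only listed gene with a larger H929 ratio than DDIT4 apart from the inducible HSP70 genes HSPA1A and HSPA1B. BHLHE40, a transcriptional repressor, was at 7.45 and 23.6 FPKM in H929, and ADM, a secreted peptide, at 28.8 and 68.3. VEGFA and PDK1, also hypoxia targets, stood at 8.32 and 3.70 and at 10.1 and 3.71 FPKM in H929. The 9 FOXO and glucocorticoid genes had median log2 ratios of -0.30 in H929 and 0.41 in KMS28BM. With the trend removed these medians were -0.04 and 0.19. In H929 1 was 2-fold or more higher, TSC22D3, with FOXO3 and NR3C1 past 2-fold downward. With the trend removed 2 genes of this list were that much higher in H929 and 0 lower. FOXO3, a FOXO factor that shares 27.8% of its words with other genes, was at 19.4 and 8.63 FPKM in H929 and at 3.81 and 8.61 in KMS28BM. TSC22D3, a glucocorticoid target known as GILZ, was at 8.02 and 18.5 FPKM in H929 and at 26.6 and 27.7 in KMS28BM. The glucocorticoid receptor NR3C1 was at 7.32 and 2.25 FPKM in H929 and at 1.53 and 4.91 in KMS28BM. Its transcript has 39.1% GC, and its log2 ratios of -1.36 and 1.23 became -0.70 and 0.52 with the trend removed. Of 8 heat shock genes, DNAJB1, HSPA1A, HSPA1B and HSPA8 passed 2-fold upward in H929 and 0 downward, against 1.59% and 5.17% of all genes. HSPA1B was at 53.5 and 351 FPKM. The H929 median of that list was 0.68, or 0.97 with the trend removed. In KMS28BM HSP90AA1 and HSPH1 passed 2-fold upward and 0 genes downward, against 4.13% and 1.12% of all genes. HSP90AA1 was at 21.6 and 81.5 FPKM there, and its log2 ratio of 1.87 became 1.45 with the trend removed. That of HSPH1, 1.02, became 0.35. The KMS28BM median was 0.08. HSPA1A and HSPA1B share most of their words, so their reads can be split between the copies.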
